A study of Homo sapiens with 6 samples.

Results

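The genes described here are neighbours on the long arm of chromosome 1, from C1orf74 to LBR, in the prostate epithelial line RWPE-1 and its arsenite-transformed descendant CAsE-PE. Of 18417 genes with a symbol of their own on the arrays, 74 start within this stretch in the RefSeq order of assembly GRCh38.p14. The members are the 50 of these with a mean log2(value + 1) of 6 or more over all 6 arrays, where the value is the intensity that the authors deposited. A further 19 genes lay below that limit, and LBR, CENPF, TGFB2, ATF3 and the small nucleolar RNA SNORA16B, 5 genes in all, were left out by name. The stretch was chosen because its genes had low values in CAsE-PE in these same arrays, so the members' differences between the groups are given as a description, and counts of calls are printed only beside those of all genes.

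RWPE-1 is a line from normal adult prostate epithelium, immortalised with genes of human papillomavirus 18. The RWPE-1 group held 3 arrays of untreated cells, from passages 18, 38 and 42. CAsE-PE cells are RWPE-1 cells grown continuously in 5 µM sodium arsenite, which the labels call malignant, and this group held 3 arrays, after 30, 33.5 and 35 weeks of arsenite. All cells shared a serum-free keratinocyte medium with pituitary extract, epidermal growth factor and an antibiotic-antimycotic mix. The labels give 1 exposed line, no passage numbers for it and no untreated cells of matched time in culture, and they do not say that passages or weeks were separate cultures. P-values therefore measure the spread between these arrays, which may be technical.

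A long stretch of chromosome holds genes of many unrelated functions, which have a place in the genome in common. Neighbouring genes can share open or closed chromatin and the number of DNA copies, and head-to-head neighbours can share a promoter. The members here include subunits of protein complexes, enzymes, transporters and signalling proteins that epithelial cells of most tissues use. The arrays measure RNA, and the number of DNA copies of the stretch was not analysed here.

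Array medians lay between 91.7 and 97.2 intensity units, and log2 values over genes correlated at 0.985 to 0.995 within a group and at 0.956 to 0.969 between groups. Of 7 epithelial markers 6 were measured, and all had a mean log2 value of at least 9.63: KRT5, KRT14, KRT8, KRT18, CDH1 and EPCAM. Of these KRT14, a keratin of basal cells, fell in CAsE-PE (−1.599, limma adjusted p = 0.00748) and CDH1 rose (0.39, adjusted p = 0.0186). Their summed level was 13.55 to 13.64 in RWPE-1 and 13.35 to 13.52 in CAsE-PE. Summed levels of 6 fibroblast markers were 8.84 to 8.95 and 8.82 to 8.91, and those of 4 endothelial markers 7.61 to 7.81 and 7.48 to 7.64. The 4 measured leukocyte markers summed to 10.21 to 10.50 in RWPE-1 and 9.31 to 9.86 in CAsE-PE, where CD68, also a gene of lysosomes, was bright (mean 9.79) and fell (−0.89, adjusted p = 0.00516), CD14 fell (−0.43), and the defining marker PTPRC had a mean of 3.85. No detection limit accompanied the intensities, so dim values cannot be told from background, and the part of these markers in the results was not tested.

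Most members were lower in CAsE-PE. Of the 50 members, 46 had a difference below 0 (59.5% of all genes did, and 53% of genes with a mean of 6 or more). Differences are means of log2 values in CAsE-PE less those in RWPE-1, and their median over members was −0.58, with a middle range of −0.73 to −0.35. Over all genes the median was −0.06, and over the 13139 genes with a mean of 6 or more it was −0.02. In each array, members were compared with their own RWPE-1 means: the median deviation was 0.01, 0.04 and −0.03 at passages 18, 38 and 42, and −0.60, −0.57 and −0.54 at 30, 33.5 and 35 weeks. The 3 CAsE-PE arrays lay apart from the 3 RWPE-1 arrays and close to each other. In RNA of whole cultures, fewer cells with an RNA and less of it per cell cannot be told apart.

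A member is said to follow the shift where all 3 CAsE-PE arrays lay below all 3 RWPE-1 arrays, and 36 of 50 did. Over all genes the share that was lower without overlap was 22.8%, and 16.1% were higher without overlap, as 0 members were. In the limma fit over all genes, 30 members were called lower at a Benjamini-Hochberg adjusted p under 0.05 and 0 higher, where the background was 8.71% of all genes lower and 9.04% higher, and 9.7% and 11.7% of genes with a mean of 6 or more. Since the stretch was chosen on this comparison, nothing is read from these counts. Of the 30, 23 were called in each of the 6 fits that left out 1 array. The members' middle range, −0.73 to −0.35, was about as wide as the −0.20 to 0.22 of genes with a mean of 6 or more. Within 0.2 of the median of −0.58 lay 26 members. Between −0.9 and −0.4 lay 30 of 50, where 6.84% of all genes did. Both windows were placed around the members' own values, so nothing is read from these counts either.

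**Figure D1:**
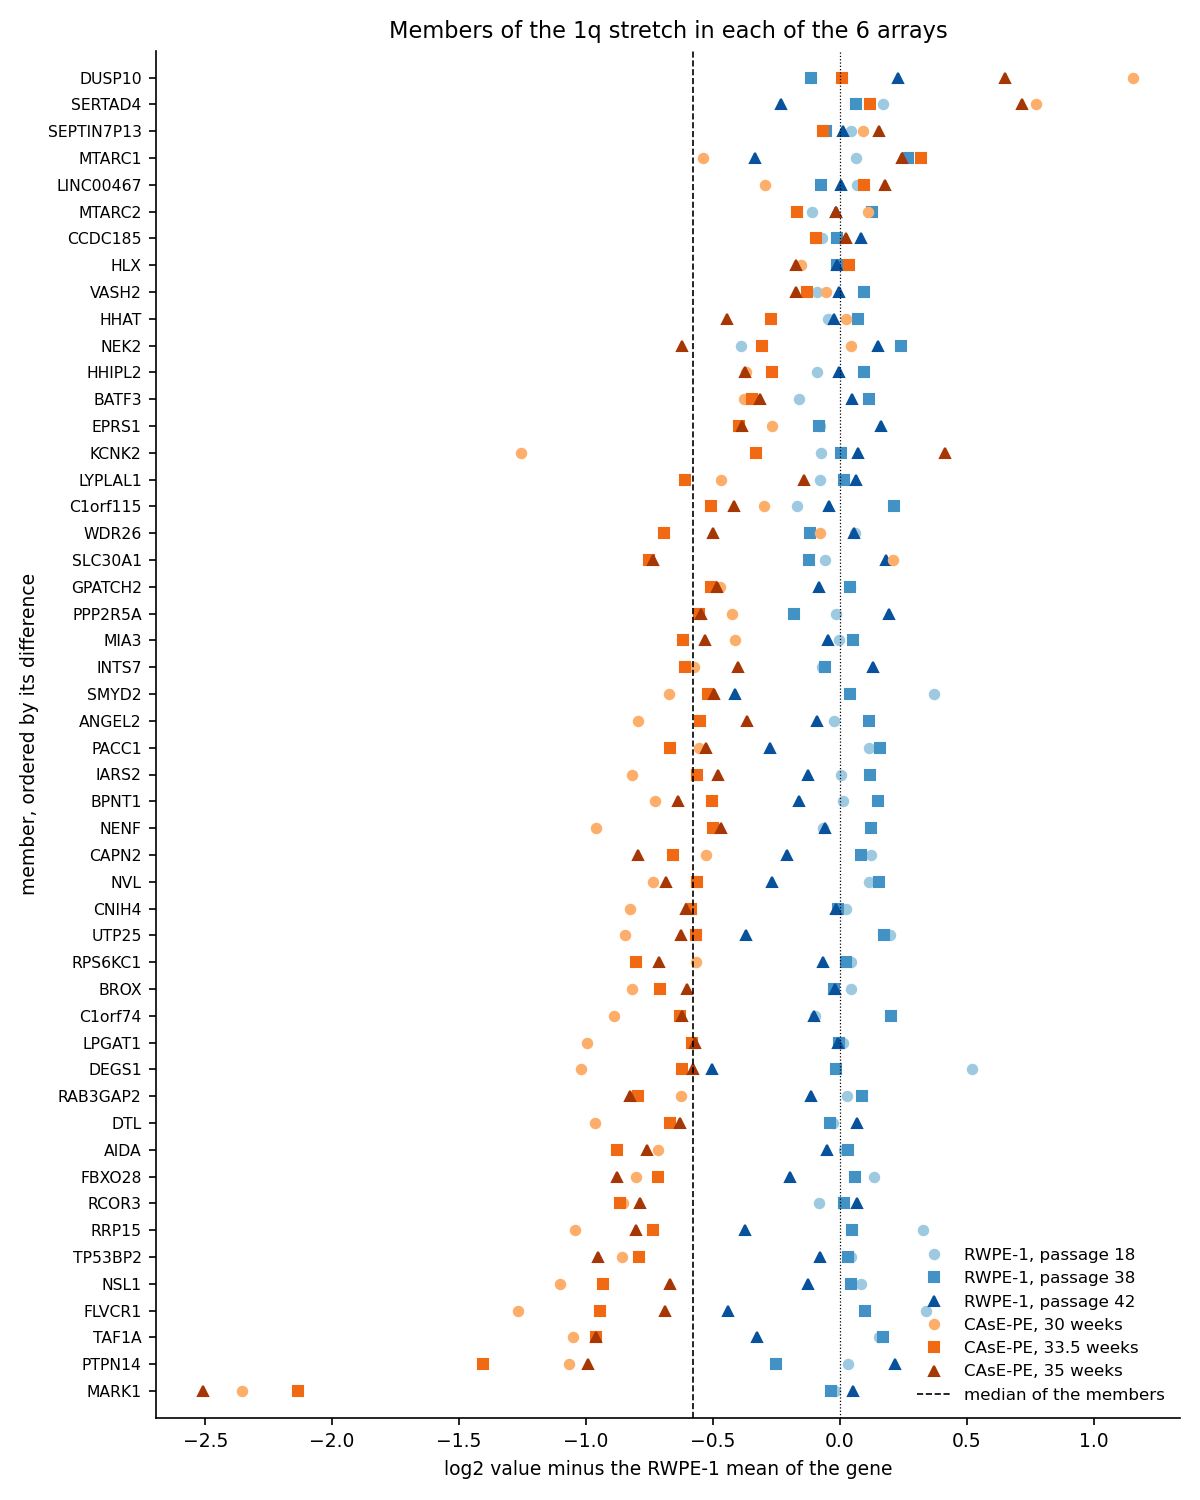
Log2(value + 1) of each of the 50 members in each array, minus the gene's RWPE-1 mean (horizontal axis), with members ordered by their difference (vertical axis); blue symbols are RWPE-1 passages, orange symbols CAsE-PE weeks, and the dashed line is the median difference of −0.58. For 36 members the 3 orange symbols lie to the left of all blue ones, while DUSP10 and SERTAD4 at the top lie to the right of 0 at 30 and 35 weeks.

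The change to lowered values near the first member was not sharp, and lowered values went on past the last. The nearest genes outside at the C1orf74 end were LAMB3, a laminin chain, at −1.48 and G0S2, a lipase inhibitor, at −0.10, and the first members inside were C1orf74 at −0.71 and UTP25, a ribosome assembly factor, at −0.68. Next to these were PLXNA2 (−0.35) and CD46 (−0.61) outside and SERTAD4 (0.54) and HHAT (−0.23) inside. Among the 25 genes before the stretch, differences ran from −1.48 in LAMB3 to 1.38 in the complement regulator CD55, with a median of −0.13. At the other end the last members were CNIH4 at −0.67 and WDR26 at −0.42, and LBR, whose start marks the border, had −0.73. The actin regulator ENAH (−0.59) and the signal recognition particle subunit SRP9 (−0.67) just outside were as low, and the xenobiotic hydrolase EPHX1 (0.33) and the ion channel TMEM63A (0.48) followed them.

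The 25 genes after LBR had a median of −0.40, with 14 called lower and 1 higher, and the next block of 25 had −0.14. Of genes with a mean of 6 or more, 9.7% were called lower and 11.7% higher, and of all genes 8.71% and 9.04%. In the third block, from SIPA1L2 to MT1HL1, the median was 0.01. On the other side, blocks of 25 genes had medians of −0.13, −0.11, −0.04 and −0.05 with growing distance. Medians were −0.13 outside and −0.58 inside the C1orf74 end, and −0.58 inside and −0.40 outside the LBR end. The stretch was chosen for these same low values, so nothing is read from a step at its ends. In single arrays the genes after LBR had medians of −0.29, −0.31 and −0.48 at 30, 33.5 and 35 weeks.

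**Figure D2:**
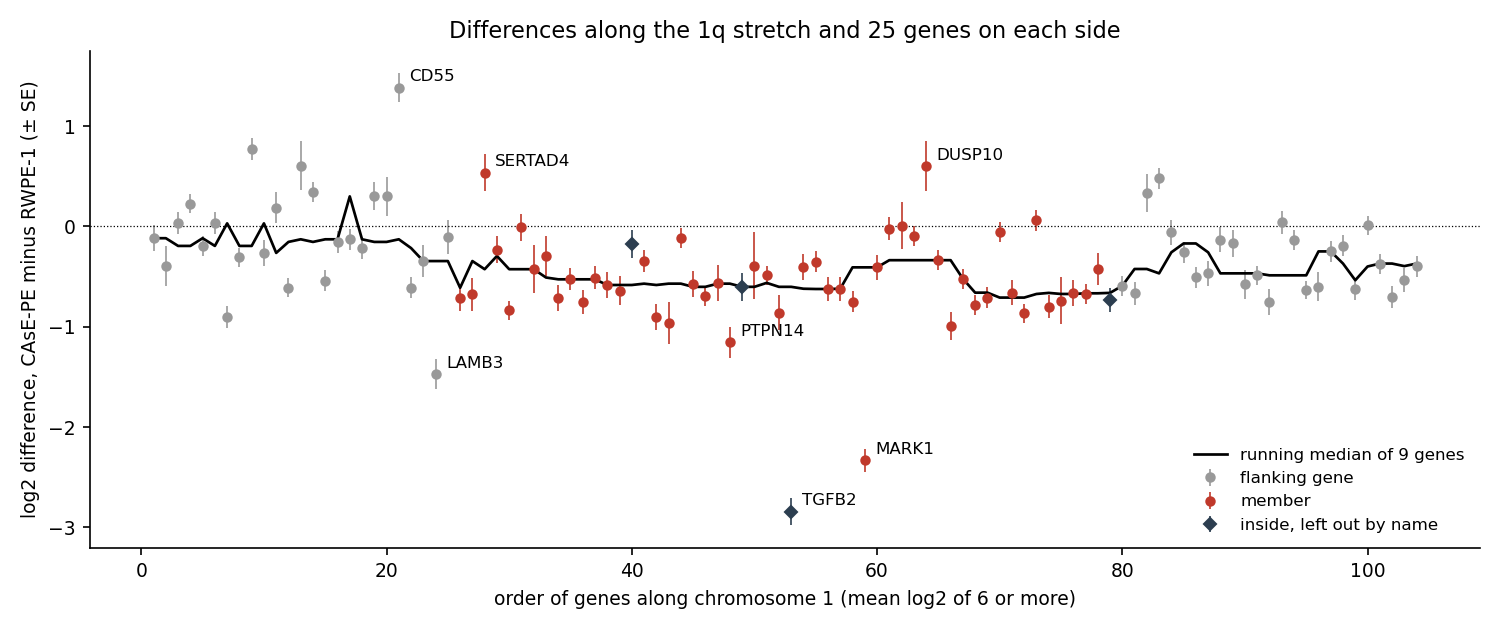
Log2 difference, CAsE-PE minus RWPE-1, with its standard error (vertical axis) for the genes of the stretch and 25 genes on each side in their order along chromosome 1 (horizontal axis, genes with a mean of 6 or more); red points are members, dark diamonds genes left out by name, grey points flanking genes, and the line is the running median of 9 genes. The line lies near −0.6 over much of the stretch, and TGFB2, MARK1, SERTAD4 and DUSP10 lie far from it.

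How much a gene was lowered went with how bright it was. The 20 members with a mean between 6 and 7 had a median difference of −0.34, the 15 between 7 and 8 had −0.66, and the 15 above 8 had −0.71. In the same bands all genes had medians of −0.13, 0.01 and 0.04. The 19 genes of the stretch below the limit had a median of −0.15. Of these, 5 were called lower, against 8.71% of all genes, and nothing is read from this count. They were TRAF5 (−0.89), an adaptor of tumour necrosis factor receptors, DNAH14 (−1.06), an axonemal dynein, the hedgehog-releasing protein DISP1 (−0.57), LINC02817 (−0.42) and CNIH3 (−0.37). Just above the limit of 6 were HHAT, at a mean of 6.02 and a difference of −0.23, and LYPLAL1, at 6.03 and −0.41. Both reached the limit through RWPE-1, with means of 6.13 and 6.23 there and 5.90 and 5.83 in CAsE-PE. Just below the limit were DISP1, at 5.89, and SUSD4, at 5.75 with a difference of −0.10. The pseudocount of 1 and any background in the intensities can shrink differences of dim genes, and the background was not measured here. Their part in the smaller differences was not tested. MARK1, at a mean of 6.09, had the largest fall of the members (−2.33).

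**Figure D3:**
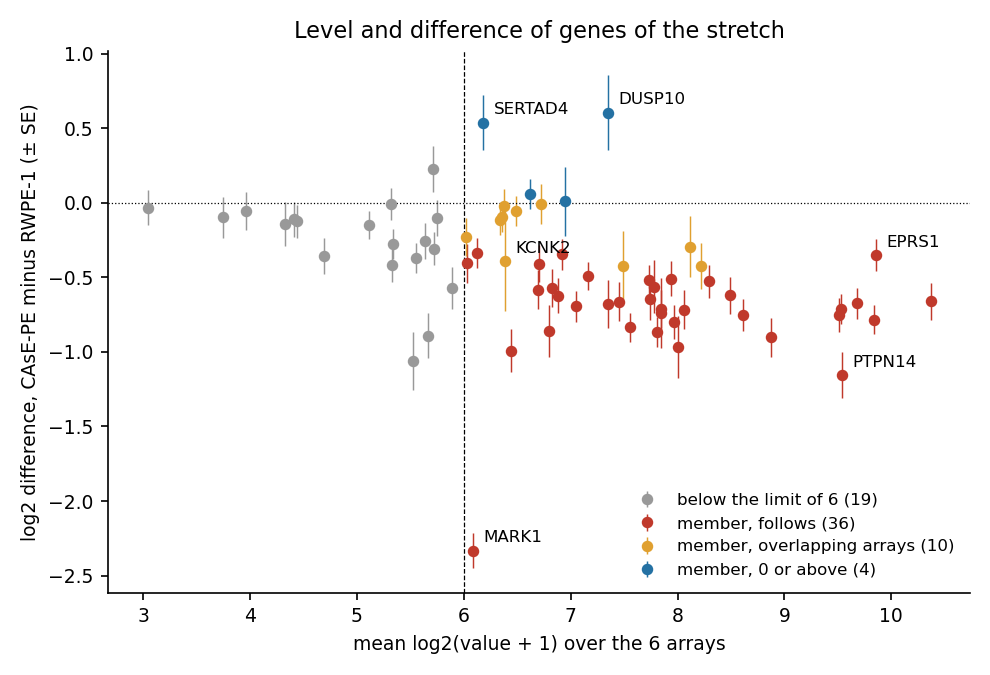
Mean log2(value + 1) over 6 arrays (horizontal axis) against the log2 difference with its standard error (vertical axis) for the 69 genes of the stretch not left out by name; colours give the 36 members that follow, the 10 with overlapping arrays, the 4 at 0 or above and the 19 genes below the limit (dashed line). Among members above 8 the points lie between −1.16 and −0.29, and below 6 many lie near 0.

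Members that act in cell division and gene expression were among those that followed. NSL1, a subunit of the MIS12 complex that joins kinetochores to microtubules, was at 9.41, 9.37 and 9.20 in RWPE-1 and 8.22, 8.39 and 8.65 in CAsE-PE, a difference of −0.90 (SE 0.13). DTL, which brings substrates such as CDT1 to a cullin ubiquitin ligase during DNA replication, was at 9.86, 9.85 and 9.95 and then 8.92, 9.22 and 9.26 (−0.75, SE 0.12). For both genes the groups were far apart compared with the spread within them. NEK2, a kinase of centrosome separation, overlapped between groups: it was at 7.87, 8.50 and 8.41 in RWPE-1 and 8.30, 7.95 and 7.64 in CAsE-PE (−0.29, SE 0.20).

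Of 13 members with roles in gene expression and translation, 12 followed, and their median was −0.57. Of all members 36 of 50 followed, and 22.8% of all genes were lower without overlap, so nothing is read from this count. TAF1A, a subunit of the selectivity factor of RNA polymerase I, had the lowest difference of these 13 members (−0.99, SE 0.14). It was at 7.09, 7.11 and 6.61 in RWPE-1 and 5.89, 5.98 and 5.98 in CAsE-PE. Its CAsE-PE mean was 5.95, so TAF1A reached the limit of 6 through RWPE-1. RRP15, an assembly factor of the large ribosomal subunit, went from 7.56, 7.28 and 6.85 to 6.18, 6.49 and 6.42 (−0.86, SE 0.17), and RCOR3, a corepressor of the CoREST family, from 7.88, 7.99 and 8.04 to 7.12, 7.10 and 7.18 (−0.84, SE 0.10). In RCOR3 the arrays of each group lay close together, whereas TAF1A and RRP15 were already lower at passage 42 than at passages 18 and 38. IARS2, the mitochondrial isoleucine-tRNA synthetase, was lower by 0.62 on the log2 scale with separate groups. EPRS1, the glutamate- and proline-tRNA synthetase, was at 9.95, 9.95 and 10.19 and then 9.76, 9.63 and 9.65, a difference of −0.35 (SE 0.11) that was nearer to 0 than that of any other member with a mean above 9. INTS7 (−0.53), UTP25 (−0.68), NVL (−0.66) and ANGEL2 (−0.57) lay near the median of the members. HLX, a homeobox factor, did not follow: it was at 6.43, 6.40 and 6.40 against 6.25, 6.44 and 6.23 (−0.10, SE 0.10).

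All 6 members with roles in membrane traffic followed, with differences between −0.75 and −0.41. As 36 of all 50 members followed and 22.8% of all genes were lower without overlap, nothing is read from this count. Traffic members were also brighter, with a median level of 8.17 against 7.47 for all members. LYPLAL1, one of the 6, had a CAsE-PE mean of 5.83. RAB3GAP2, the non-catalytic subunit of a regulator of RAB3 and RAB18, was at 9.02, 9.08 and 8.88 in RWPE-1 and 8.36, 8.19 and 8.16 in CAsE-PE. BROX, a BRO1-domain protein of the ESCRT system, was at 9.93, 9.86 and 9.86 and then 9.06, 9.17 and 9.28, and the cargo receptor CNIH4 lay near 10 in all RWPE-1 arrays and at 9.19, 9.43 and 9.41 in CAsE-PE. These genes had tight groups with no overlap. MIA3, which exports collagens and other large cargo from the endoplasmic reticulum, had a difference of −0.52.

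Signalling and protein turnover genes held both ends of the range. MARK1, a kinase that regulates microtubule-binding proteins and cell polarity, had the most negative difference, at 7.23, 7.22 and 7.31 in RWPE-1 and 4.90, 5.12 and 4.74 in CAsE-PE. Its difference was −2.33 (SE 0.12), or −1.89 with a pseudocount of 16. It reached the limit of 6 through RWPE-1, and its CAsE-PE mean of 4.92 is a level that cannot be told from background, so its size is uncertain. PTPN14, a phosphatase that restrains the growth regulator YAP1, was at 10.15, 9.87 and 10.33 and then 9.05, 8.71 and 9.13 (−1.16, SE 0.15, 2.23-fold lower). These were the 2 members lowered by 1 or more on the log2 scale, a size that 2.09% of all genes reached, and 2.37% of those with a mean of 6 or more. Followers with smaller differences were TP53BP2, a p53-binding protein of the ASPP family (−0.87), the F-box protein FBXO28 (−0.80), AIDA (−0.78), the calcium-dependent protease CAPN2 (−0.66) and PPP2R5A, a regulatory subunit of the phosphatase PP2A (−0.51). AIDA had 2 features, at RWPE-1 means of 10.23 and 6.25 with differences of −0.78 and −0.39. They lie far apart in level, and which of them measures this locus is not settled here, so its value is uncertain. WDR26, a subunit of the CTLH ubiquitin ligase, was at 8.35, 7.74 and 7.93 in CAsE-PE, and its 30-week array lay among the RWPE-1 values of 8.31 to 8.49.

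Besides the 36 that followed, 4 members were at 0 or above and 10 had overlapping arrays. DUSP10 and SERTAD4 were higher than all RWPE-1 arrays at 30 and 35 weeks. DUSP10, a phosphatase that inactivates the stress kinases p38 and JNK, was at 6.93, 6.93 and 7.27 in RWPE-1 and 8.20, 7.05 and 7.69 in CAsE-PE (0.60, SE 0.25). SERTAD4, a SERTA-domain protein, was at 6.08, 5.98 and 5.68 and then 6.68, 6.03 and 6.63 (0.54, SE 0.18). In both genes the 33.5-week array lay within the RWPE-1 values. The mean of SERTAD4 was 5.91 in RWPE-1 and 6.45 in CAsE-PE, so it reached the limit of 6 through CAsE-PE. The other members at 0 or above were MTARC1 (0.01, SE 0.23), a molybdenum enzyme of mitochondria, and the pseudogene SEPTIN7P13 (0.06, SE 0.10), which shares sequence with other copies, so its value is uncertain.

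Among the 10 members with overlapping arrays, those near 0 included HLX, LINC00467 (−0.01, SE 0.13), MTARC2 (−0.02, SE 0.11), the neighbour of MTARC1 with the same kind of enzyme, CCDC185 (−0.06, SE 0.10) and VASH2 (−0.12, SE 0.10), which removes tyrosine from tubulin. Each of these had a mean between 6 and 7. MTARC2 ranged from 6.28 to 6.52 in RWPE-1 and was at 6.22 and 6.37 at 33.5 and 35 weeks, with no order between the groups.

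Of 4 transporters and channels, FLVCR1 and the proton-activated chloride channel PACC1 (−0.58) followed, and SLC30A1 and KCNK2 had CAsE-PE arrays far apart. FLVCR1, an exporter of haem and importer of choline, was at 8.83, 8.59 and 8.05 in RWPE-1 and 7.22, 7.54 and 7.80 in CAsE-PE (−0.97, SE 0.21). SLC30A1, the zinc exporter of the plasma membrane, was at 7.64, 7.58 and 7.88 and then 7.91, 6.95 and 6.97, so that the 30-week array was the highest of all 6. KCNK2, a potassium leak channel that opens on stretch, was at 6.51, 6.59 and 6.65 and then 5.33, 6.25 and 6.996. Its CAsE-PE arrays spanned both sides of the RWPE-1 values.

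Trends within each group are measures that the choice of the stretch did not use. In a limma model with group, passage and weeks, which has 2 residual degrees of freedom, KCNK2 rose by 0.32 per week of arsenite (SE 0.04, adjusted p = 0.0199). It was the only member called for weeks, 1 of 50, where 0.25% of all genes were called in either direction. With a pseudocount of 16 the call was lost (adjusted p = 0.0522), and the slope rests on 3 arrays. The 30-week value of KCNK2, 5.33, was dim, and dim values cannot be told from background here. SLC30A1 had the most negative slope over weeks, −0.20 per week (SE 0.04, adjusted p = 0.110), and did not pass. At an unadjusted p under 0.05, 10 members had a slope over weeks, 6 rising and 4 falling, against 11.3% of all genes.

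For passage, 0 members were called, where 0.0217% of all genes were. At an unadjusted p under 0.05, 5 members had a slope over passages, against 5.82% of all genes, and 4 of these slopes were negative. DEGS1, the desaturase that makes ceramide, was at 8.73, 8.20 and 7.71 at passages 18, 38 and 42, a slope of −0.38 per 10 passages (SE 0.08, adjusted p = 0.411). The lysine methyltransferase SMYD2 went 8.43, 8.10 and 7.65 (adjusted p = 0.763), and RRP15 and FLVCR1 had slopes of −0.24 and −0.26. At passage 42 SMYD2 and DEGS1 were within 0.1 of a CAsE-PE array, and their separation from CAsE-PE was small there. NEK2 had the positive slope, 0.25 per 10 passages (SE 0.08, adjusted p = 0.759).

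**Figure D4:**
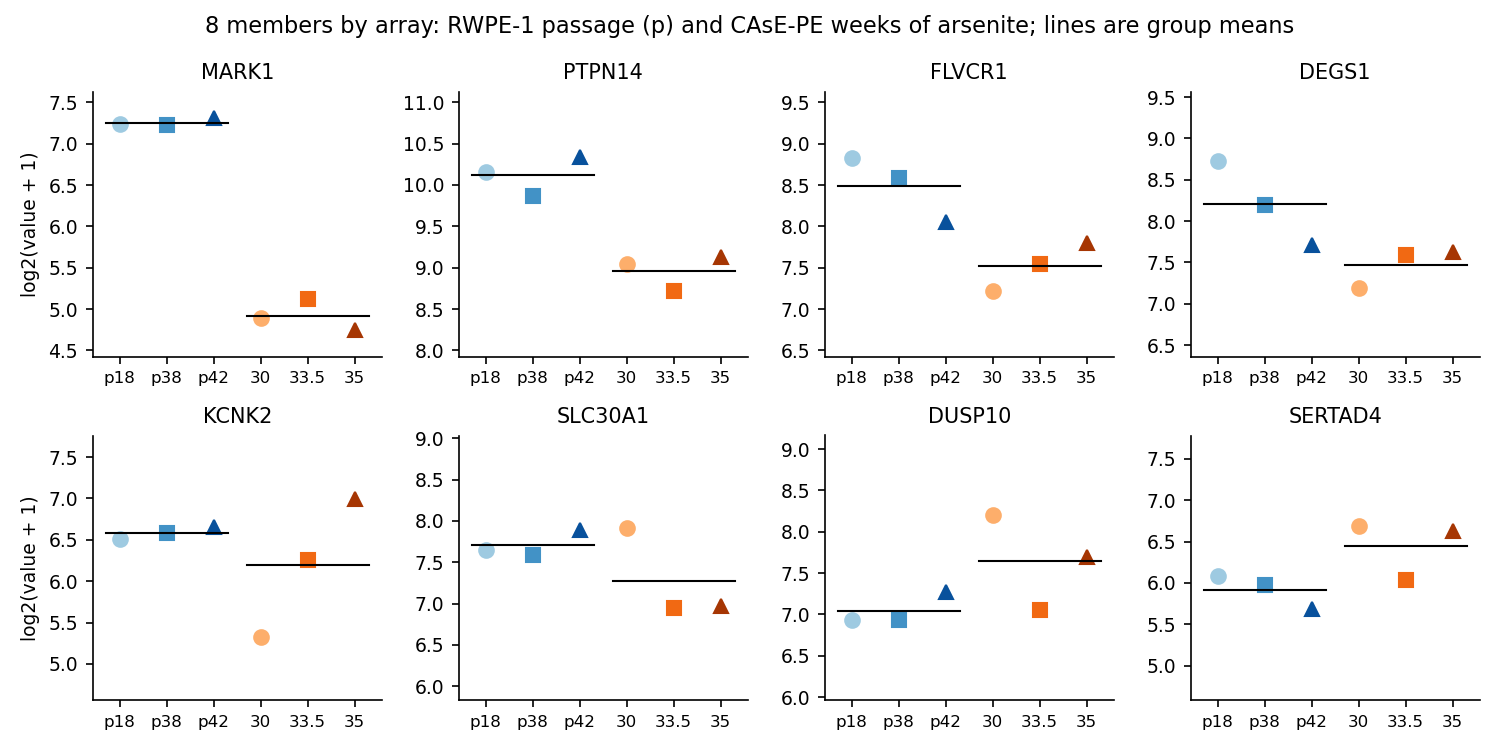
Log2(value + 1) of 8 members (vertical axes, each spanning the same range) in RWPE-1 at passages 18, 38 and 42 and in CAsE-PE at 30, 33.5 and 35 weeks (horizontal axes); lines are group means. MARK1 and PTPN14 separate by group, KCNK2 runs from 5.33 to 6.996 over the weeks, and DUSP10 and SERTAD4 are at RWPE-1 levels at 33.5 weeks.

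Promoters were read for the 43 members that the RefSeq table of promoters holds, each from 250 bases before to 50 after a start. Head-to-head starts within 1000 bases occurred for 5 pairs of measured genes of the stretch in that table. In 2 pairs both genes were members. The starts of INTS7 and DTL lay 191 bases apart, with differences of −0.53 and −0.75, and those of AIDA and BROX 73 bases apart, with −0.78 and −0.71. For AIDA the features disagree, and −0.39 is the difference of the dimmer one. In the other 3 pairs the second gene lay below the limit of 6: FLVCR1 had −0.97 beside −0.01 for FLVCR1-DT, GPATCH2 −0.49 beside 0.23 for SPATA17, and WDR26 −0.42 beside −0.37 for CNIH3. Since members were chosen from a lowered stretch, 2 members with differences below 0 say nothing about a shared start.

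The sequences of DTL (chr1:212035498-212035797, plus strand) and BROX (chr1:222712314-222712613, plus strand) are shown for these neighbouring starts, since each also holds the start of its partner on the other strand. Sequences are from RefSeq, build GRCh38.p14, read 5′ to 3′ on the strand of the named gene. Capitals mark matches on either strand to CCAAT, to the GC box letters GGGCGG and to the TATA box letters TATAAA.
DTL: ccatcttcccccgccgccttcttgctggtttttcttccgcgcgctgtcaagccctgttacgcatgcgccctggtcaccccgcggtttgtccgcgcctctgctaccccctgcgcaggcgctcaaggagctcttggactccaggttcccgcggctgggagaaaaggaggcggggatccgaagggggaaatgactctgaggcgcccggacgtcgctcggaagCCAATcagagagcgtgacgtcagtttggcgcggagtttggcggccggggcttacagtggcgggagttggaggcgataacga
BROX: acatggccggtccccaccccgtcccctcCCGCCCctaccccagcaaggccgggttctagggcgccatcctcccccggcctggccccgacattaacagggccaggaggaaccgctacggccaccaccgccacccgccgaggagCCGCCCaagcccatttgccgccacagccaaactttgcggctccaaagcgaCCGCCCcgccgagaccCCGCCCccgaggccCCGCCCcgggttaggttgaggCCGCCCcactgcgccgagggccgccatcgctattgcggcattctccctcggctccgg
The DTL promoter holds 1 CCAAT and no GGGCGG, and the BROX promoter 6 GGGCGG and no CCAAT, while both hold 31 CG dinucleotides.

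The promoters of the highest members, DUSP10 (chr1:221742040-221742339, minus strand) and SERTAD4 (chr1:210232546-210232845, plus strand), are shown beside that of PTPN14 (chr1:214551553-214551852, minus strand), one of the lowest. The table lists 2 starts each for BROX, DUSP10 and SERTAD4, and the most upstream one is printed.
DUSP10: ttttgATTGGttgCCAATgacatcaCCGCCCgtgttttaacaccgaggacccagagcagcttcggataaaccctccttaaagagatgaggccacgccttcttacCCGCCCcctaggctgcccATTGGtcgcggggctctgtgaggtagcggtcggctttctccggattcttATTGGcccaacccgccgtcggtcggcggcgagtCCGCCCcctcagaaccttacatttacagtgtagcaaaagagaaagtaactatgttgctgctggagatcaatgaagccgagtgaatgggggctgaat
SERTAD4: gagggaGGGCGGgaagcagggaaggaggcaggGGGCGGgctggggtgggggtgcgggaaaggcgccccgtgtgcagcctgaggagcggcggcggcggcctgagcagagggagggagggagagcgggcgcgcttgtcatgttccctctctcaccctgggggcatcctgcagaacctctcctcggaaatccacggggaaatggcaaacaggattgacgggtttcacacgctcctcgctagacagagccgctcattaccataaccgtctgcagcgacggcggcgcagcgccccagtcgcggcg
PTPN14: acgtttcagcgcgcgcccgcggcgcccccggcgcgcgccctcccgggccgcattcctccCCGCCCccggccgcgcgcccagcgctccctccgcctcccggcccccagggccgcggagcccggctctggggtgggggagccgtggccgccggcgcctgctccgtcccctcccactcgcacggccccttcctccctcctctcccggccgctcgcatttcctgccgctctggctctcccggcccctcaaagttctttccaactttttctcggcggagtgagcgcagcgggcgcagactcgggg
DUSP10 has 4 CCAAT and 3 GGGCGG matches with 55.0% G and C, SERTAD4 2 GGGCGG with 68.3%, and PTPN14 1 GGGCGG with 77.3%. A match is a run of letters and shows no binding.

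Over all 56 promoters of members, GGGCGG on either strand was present in 64.3%, against 45.0% of the 35116 promoters of the table. CCAAT was present in 37.5% against 34.6%, and TATAAA in 5.36% against 11.5%. The median number of CG dinucleotides was 25 in members and 14 in the table. Members were chosen to be bright and the table holds genes of any level, so these shares describe members and do not set them apart. Members that follow had a median of 26 CG dinucleotides in 39 promoters, those with overlapping arrays 22 in 12, and those at 0 or above 19 in 5. The last 5 promoters belong to 3 genes. These classes also differed in brightness, with median levels of 7.79, 6.44 and 6.78, so no promoter trait is read from them.

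Partner genes at other loci, whose products work with those of 21 members, are measures outside the stretch. Of 265 measured in 17 lists, 20 were called lower and 28 higher by limma, which is 7.55% and 10.6%, against 8.71% and 9.04% of all genes. Their median difference was −0.01, against −0.06 for all genes. Partners were mostly bright, with a median level of 8.49, though some, CERS3 and CAPNS2 among them, had a mean below 6. Genes with a mean of 8 or more had a median difference of 0.04, with 8.86% called lower and 14.0% higher. None of them lies in the stretch, and 22 are on chromosome 1. Whether partners changed together with neighbours at their own loci, as members do, was not tested. Both shares are near those of all genes. Leaving out the passage 38 array gave 11 lower and 13 higher, leaving out the 35-week array 11 and 19, and leaving out passage 42 gave 31 lower.

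The aminoacyl-tRNA synthetases, which load amino acids onto tRNA, included rises while EPRS1 and IARS2 were lower. Of 35 measured elsewhere, 8 rose and 2 fell, with a median of 0.10, and 3 rose without the passage 38 array. FARS2, the mitochondrial phenylalanine enzyme, rose most (0.91, SE 0.11, adjusted p = 0.000866), IARS1, the cytosolic counterpart of IARS2, rose by 0.76 (SE 0.10, adjusted p = 0.00123), and the mitochondrial CARS2 fell (−0.91, SE 0.15, adjusted p = 0.00302). Of 14 Integrator subunits beside INTS7, which process small nuclear RNA, INTS2 (1.24, SE 0.12, adjusted p = 0.00017) and INTS10 rose and INTS3 (−0.43, adjusted p = 0.029) fell. Among 9 other kinetochore genes, KNL1, a scaffold bound by the complex of NSL1, rose (0.75, adjusted p = 0.00214) and 0 fell.

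In ubiquitin ligases, RBX1 (0.73, adjusted p = 0.0093) and DCAF7 of 12 partners of DTL rose and CUL4B (−0.42, adjusted p = 0.024) fell, and MKLN1 of 10 partners of WDR26 rose (0.78, adjusted p = 0.000674). Of 10 centrosome partners of NEK2, limma called 0, with 4 higher and 0 lower at an unadjusted p under 0.05, and of 6 partners of TP53BP2 it called 0, with 1 lower and 0 higher at that level. Of 15 genes beside TAF1A, TTF1 rose (0.50, adjusted p = 0.0178), and of 33 ribosome assembly genes UTP18 (0.76, adjusted p = 0.00805) and NHP2 rose and 0 fell, with 2 lower at an unadjusted p under 0.05. Without the passage 42 array that list had 1 rise and 8 falls, and the list of TAF1A 1 rise and 3 falls, so the direction in both rests on that array.

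Partners of RAB3GAP2 had most falls for their number among the 17 lists, a rank picked after the values were seen. Of 6 measured, 3 fell and 0 rose: RAB3B, a vesicle GTPase (−1.20, SE 0.19, adjusted p = 0.00283), RAB18 (−0.72, adjusted p = 0.00575) and TBC1D20 (−0.41, adjusted p = 0.0386). RAB3GAP1, the catalytic subunit beside RAB3GAP2, differed by −0.05 (adjusted p = 0.803). The list had 2 falls in each of the 6 fits with 1 array left out. Whether the 3 genes fell with neighbours at their own loci was not tested, so nothing about RAB3GAP2 is read from their falls. Of 14 PP2A subunits, PPP2R5B (−0.60, adjusted p = 0.00593) and PPP2R2B fell. Among 11 other calpain genes, CAPNS1, the small subunit that CAPN2 needs, fell (−0.57, adjusted p = 0.0038) with CAPN1, and CAPNS2 (0.83, adjusted p = 0.0186) and CAPN7 rose. CAPNS2 had a mean below 6 and a difference of 0.66 with a pseudocount of 16, so its size is uncertain. Some single arrays decide calls: CUL4B, INTS3, TTF1 and CAPNS2 did not pass without passage 38 (adjusted p = 0.102, 0.107, 0.0826 and 0.0676), and each was also lost in other alternatives. Rises among the calpain genes numbered 0 without passage 38.

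Of 22 Hippo pathway genes, CCN1, a target of YAP1, fell (−1.02, adjusted p = 0.0368) with ANKRD1, and WWTR1 (0.52, adjusted p = 0.0333) and TEAD4 rose, while YAP1 differed by 0.05 (adjusted p = 0.771). The call of CCN1 was lost in 6 alternatives and that of WWTR1 in 5, both most clearly without passage 38 (adjusted p = 0.125 and 0.0793). Falls among the Hippo genes numbered 0 without passage 38, without the 33.5-week and without the 35-week array. Of 9 other DUSP phosphatases, DUSP1 rose (2.07, SE 0.19, adjusted p = 0.000154), and DUSP16 (−0.82, adjusted p = 0.0136) and DUSP2 fell. Falls among the DUSP genes numbered 0 without passage 38 and without the 35-week array. Of 23 zinc transport genes, SLC39A6 rose (0.82, adjusted p = 0.0344) and SLC39A8, an importer of zinc and manganese (−1.54, SE 0.29, adjusted p = 0.00641), and SLC39A10 fell. Of 16 sphingolipid genes 3 rose, SPTSSA the most (0.51, adjusted p = 0.0291), and 2 fell, CERS3 the most (−1.38, SE 0.18, adjusted p = 0.000936). CERS3 had a mean below 6 and a difference of −1.11 with a pseudocount of 16, so its size is uncertain. The rises in that list numbered 0 without passage 18, without passage 38 and without the 35-week array. Of 20 genes of export from the endoplasmic reticulum, MIA2 (0.75, adjusted p = 0.0118) and SEC16A rose and SEC23B (−0.60, adjusted p = 0.00594) fell. Without the 35-week array SLC39A6 and SPTSSA did not pass (adjusted p = 0.122 and 0.11). MIA2 is related to MIA3 and its call was lost over the mean of its features (adjusted p = 0.104).

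**Figure D5:**
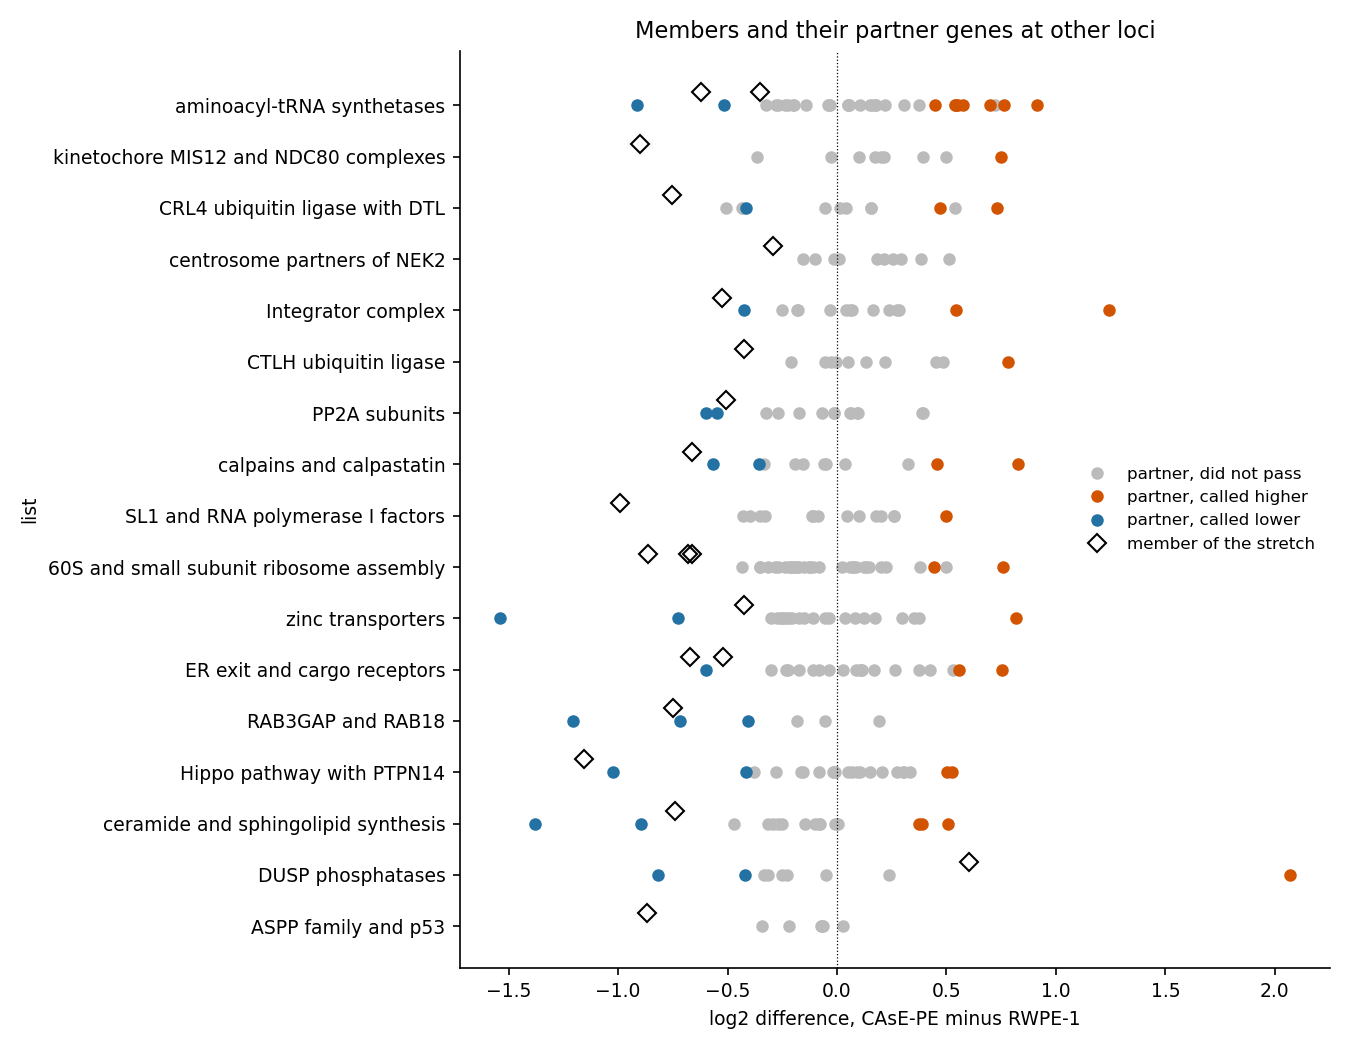
Log2 difference, CAsE-PE minus RWPE-1 (horizontal axis), of partner genes at other loci (circles: grey did not pass, orange called higher, blue called lower) and of the members they work with (open diamonds), by list (vertical axis). The diamonds lie left of 0 except that of DUSP10, while the circles lie on both sides, with a median of −0.01 over 265 genes.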

How the data were processed

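RNA from 6 samples was hybridised to arrays of a single colour that probe whole transcripts. The authors deposited 1 linear intensity per feature and array for 33252 features, and how it was background-corrected, summarised and normalised is not given in the sources used here. In GEO's platform annotation 19460 features carried 1 symbol and 1754 several, and 12038 were unlisted. Of the first, 19429 had an identifier in the RefSeq table of GRCh38.p14, used for chromosome and gene order. The brightest feature stood for each of 18417 genes, and 48 of 50 members had 1 feature. Starting from the deposited intensity, values were taken to log2(value + 1).

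Groups came from the labels, and their comparison used limma (version 3.58.1, under R 4.3.3, with 4 residual degrees of freedom), with Benjamini-Hochberg adjustment over all genes. Trends came from a second model with group, passage and weeks. Fits were tested on simulated data. Python 3.11.15, numpy 2.4.6 and pandas 2.3.3 made the summaries. Named genes were the 8 lowest and 8 highest members, those nearest each limit, members called for a trend, members with partner lists and each list's largest called rise and fall. Others were picked after their values were seen. A planned list is not reported here. The members and the lists were chosen with earlier results of these data known. Alternatives were other scalings, a pseudocount of 16, the mean of all features, other brightness limits, another variance model and each array left out. With 3 arrays per group, their number limits the precision.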

Additional observations from a re-analysis of the deposited data

How the results depend on the processing

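No paired analysis was possible because the labels give no replicate numbers that the groups share. The median difference of the members stayed below 0 in every alternative. It was −0.52 with a pseudocount of 16, −0.52 with members of a mean of 5 or more, −0.68 with a limit of 7, −0.43 over all 69 measured genes of the stretch, and −0.68 to −0.54 with 1 array left out. With 1 array left out, 24 to 32 members were called lower, 0 to 2 higher (DUSP10 and SERTAD4 without the 33.5-week array), and 36 to 40 were lower without overlap. Members at 0 or above numbered 3 to 6 over the alternatives that kept the limit of 6. With a pseudocount of 16, 0 members were called for weeks, where the cause was not tested. Partner genes called lower numbered 11 to 31 and higher 13 to 29 with 1 array left out. Other alternatives kept these counts within 1.5 times. Trends were not refitted with an array left out. Dim genes, and the size of the fall of MARK1 (−1.89 with a pseudocount of 16), are limited by signal over background, which is unknown here.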
